A study of Mus musculus with 3 samples.

Results

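The 86 cytosolic ribosomal protein genes of the mouse annotation were followed through the cells of ear skin. They comprise every gene symbol that begins with Rpl or Rps and a digit, plus Rpsa, Rplp0, Rplp1 and Rplp2, with pseudogene symbols and the Rps6k kinases left out. This gave 86 of the 31053 annotated genes. Of these, 46 encode proteins of the large subunit and 31 encode proteins of the small subunit. Another 8 are paralog-type genes, each a close relative of another member. The last, Rps19bp1, carries the prefix but encodes a binding partner of Rps19 and not a subunit.

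Ribosomal proteins are built into the ribosome with its RNA in the nucleolus, each subunit needing its full set in near equal amounts. Their messenger RNAs are among the most abundant of any cell. Most begin with a run of pyrimidines at the very first base, the 5′ terminal oligopyrimidine (TOP) tract, through which the growth kinase mTOR and its partner Larp1 set how strongly they are translated. A few members have a second gene whose protein can take the parent's place, and one such gene, Rps27l, is a known target of the tumour suppressor p53.

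The study asked how Langerhans cells, the dendritic cells of the epidermis, bear on the lymphatic vessels of the skin. Each of 3 libraries was made from the ears of 1 pool of untreated mice: Langerin-DTA mice aged 8 weeks (Lang-DTA, 4 males and 6 females), C57BL/6J wild type mice aged 8 weeks (adult WT, 6 males and 4 females) and C57BL/6J wild type mice aged 4 weeks (young WT, 5 males and 3 females). In Langerin-DTA mice, regulatory sequence of the human Langerin gene drives diphtheria toxin A, which removes Langerhans cells. The labels state that wild type mice set against Langerin-DTA mice were littermates, bred from hemizygous transgenic fathers, but do not say so of the 8-week pool used here by name. From each pool, lymphatic endothelial cells (CD31+ PDPN+), blood endothelial cells (CD31+ PDPN-), CD45+ leukocytes and the remaining CD45- CD31- cells were sorted and mixed in equal parts, so cell numbers do not reflect the tissue. The message of Cd207, the gene for Langerin, stood at 0.702 CPM (87 UMIs) in Lang-DTA cells, against 134 CPM in adult WT and 186 CPM in young WT cells. CPM is UMI counts scaled to a common total of 1e+06, and a UMI stands for 1 captured RNA molecule.

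The libraries held 13540, 13600 and 12864 cell barcodes for Lang-DTA, adult WT and young WT, of which 12941, 12621 and 12399 passed the quality filter. Their median depth was 8569, 8479 and 9823 UMIs per cell. Pairs of libraries shared 39 to 50 barcodes. Cells were gated by their own UMIs: Prox1 of at least 2 (lymphatic gate), Cdh5 plus Ptprb of at least 3 with neither Prox1 nor Mmrn1 (blood endothelial gate), Krt5 plus Krt14 of at least 0.3% (keratinocyte gate), Dpt of at least 2 (Dpt gate, fibroblasts) and Trdv4 of at least 1 (Trdv4 gate, γδ T cells). The marker lists include the genes used for gating, so each gate held its own cell type's markers partly by construction. In the lymphatic gate all 9 lymphatic markers were above 10 CPM, with a summed level of 7483, 15514 and 12122 CPM in Lang-DTA, adult WT and young WT. All 9 blood endothelial markers passed 10 CPM there too, with lower sums of 2533, 3417 and 3029 CPM. There was 1 library per condition, so no difference between conditions has a replicate check and none was tested. The intervals given are exact 95% intervals for counting error only.

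Ribosomal protein transcripts made up 10.3% of all UMIs in Lang-DTA, 10.6% in adult WT and 7.71% in young WT cells. The family's share depended first on the cell type. In the keratinocyte gate it was 16.6%, 16.03% and 14.4% of UMIs in Lang-DTA, adult WT and young WT. In the blood endothelial gate it was 8.00%, 8.61% and 6.14%, and in the lymphatic gate 7.54%, 7.46% and 6.07%. The Dpt gate held 6.62%, 6.73% and 5.74%, and the Trdv4 gate 5.94%, 6.07% and 5.24%. Keratinocytes were the highest and the Trdv4 gate the lowest of the 5 gates in every library, and the order of the Dpt gate below both endothelial gates was also the same in all 3. The keratinocyte total was 1.86 to 2.80 times that of any other gate.

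**Figure D1:**
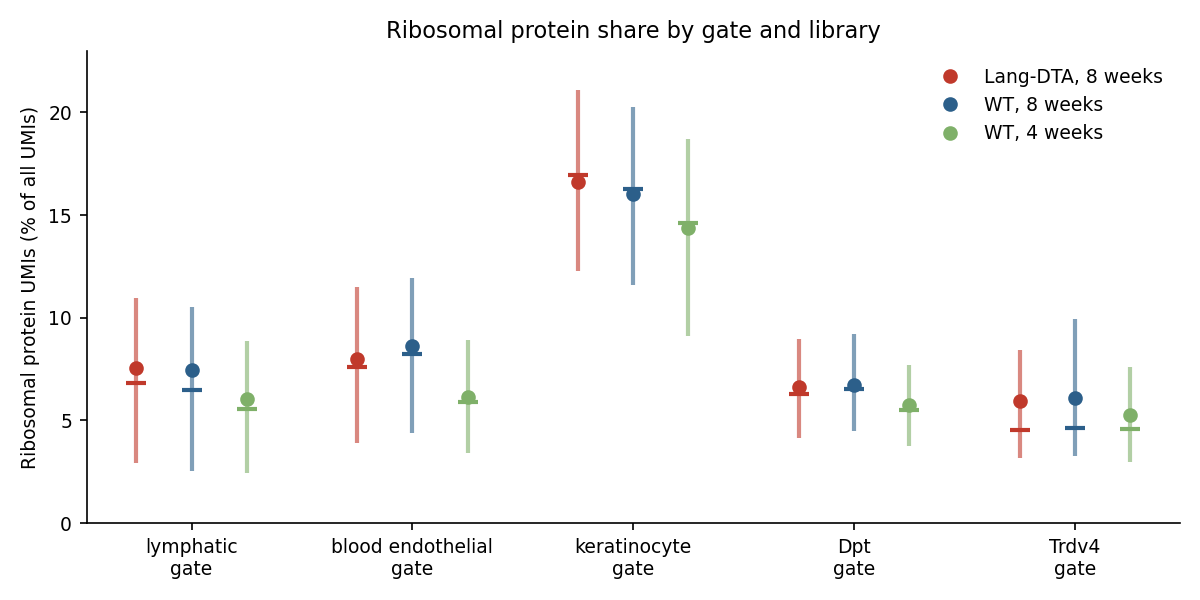
Ribosomal protein UMIs as a percent of all UMIs (vertical axis) in each gate and library, with Lang-DTA left, then adult WT and young WT. Filled points are the pooled share, short bars the median over cells and vertical lines the 10th to 90th percentile of cells. By pooled share the keratinocyte gate stands above the others in all 3 libraries, and young WT is the lowest library in every gate. The cell medians of the Trdv4 gate are 4.53% in Lang-DTA, 4.65% in adult WT and 4.61% in young WT.

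Almost every member shared in the keratinocyte excess. A gene counts as measured here at a mean of at least 10 CPM over both sides of a comparison. Over the lymphatic gate, 79 of 82 measured members were higher in keratinocytes in Lang-DTA (40.9% of all measured genes were), and 82 of 82 in both adult WT (50.3%) and young WT (48.9%). Over the blood endothelial gate these were 83 of 83 in Lang-DTA (51.4%), 83 of 83 in adult WT (56%) and 82 of 82 in young WT (55%). Over the Dpt gate they were 82 of 82 in Lang-DTA (54.4%), 82 of 83 in adult WT (57.9%) and 82 of 82 in young WT (55.9%). Over the Trdv4 gate all 82 measured members were higher in keratinocytes in Lang-DTA (49.5%), adult WT (52.7%) and young WT (50.9%). The 4 members low throughout were Rps27rt (mean of 6.31 CPM over gates and libraries), Rpl39l (4.90 CPM), Rpl3l (0.165 CPM), which is a gene of striated muscle, and Rpl10l, a gene of the testis, which had 0 UMIs in every gate. Rpl39l reached 24.3 CPM in the Dpt gate of adult WT, and was otherwise at or under 14.8 CPM.

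Rpl13, Rps24, Rplp1 and Rps14 were among the 5 most abundant members. UMIs of a 3′ kit count transcript ends, so no correction for length was made. Whether capture differs with transcript length was not tested. Rpl13, a protein of the large subunit, reached 4492 CPM in Lang-DTA, 4402 CPM in adult WT and 4845 CPM in young WT keratinocytes. In the Trdv4 gate it was at 1195 CPM in Lang-DTA, 1230.4 CPM in adult WT and 1302 CPM in young WT. The same direction held for all 82 measured members, as given above.

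Beyond the total, the composition of the family differed between cell types. The genes named for this were picked among members with the same direction in all 3 libraries, so their recurrence was set by the choice. To see this, each gene's share of the ribosomal protein UMIs in a gate was divided by its mean share in the other 4 gates. Rplp0, the base protein of the large-subunit stalk that recruits elongation factors, took a larger share in keratinocytes, with log2 ratios of 0.84 in Lang-DTA, 0.77 in adult WT and 0.66 in young WT. Its level there was 3901, 3643 and 4362 CPM, against 778 to 1221 CPM in the other gates. Rps26, a small-subunit protein at the messenger RNA exit, followed with log2 share ratios of 0.54, 0.58 and 0.55, and Rpl10a with 0.40, 0.45 and 0.45. Rps29 took a smaller share in keratinocytes, at -0.52, -0.64 and -0.65.

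Each of the other gates had its own small set. In the blood endothelial gate Rps27, Rps29 and Rps14 took larger shares, with log2 ratios of 0.29 to 0.42 over the 3 genes and libraries. In the Dpt gate the paralog Rpl22l1 stood out at 0.53, 0.49 and 0.63 in Lang-DTA, adult WT and young WT. In the Trdv4 gate Rpl27, Rpl10 and Rpl39 took larger shares (0.32 to 0.55), and Rps12, Rps28 and Rps19 smaller ones (-0.46 to -0.31). In the lymphatic gate Rpsa, the small-subunit protein also known as the laminin receptor precursor, took a smaller share in all 3 libraries, at -0.44, -0.48 and -0.42. Rplp0 was lower there too, but unevenly, at -0.66, -0.32 and -0.18. The same was true of the paralogs Rps27l and Rpl7l1, whose lymphatic share ratio was 1.32 and 1.35 in Lang-DTA, against 0.21 and 0.088 in adult WT and 0.20 and 0.31 in young WT.

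**Figure D2:**
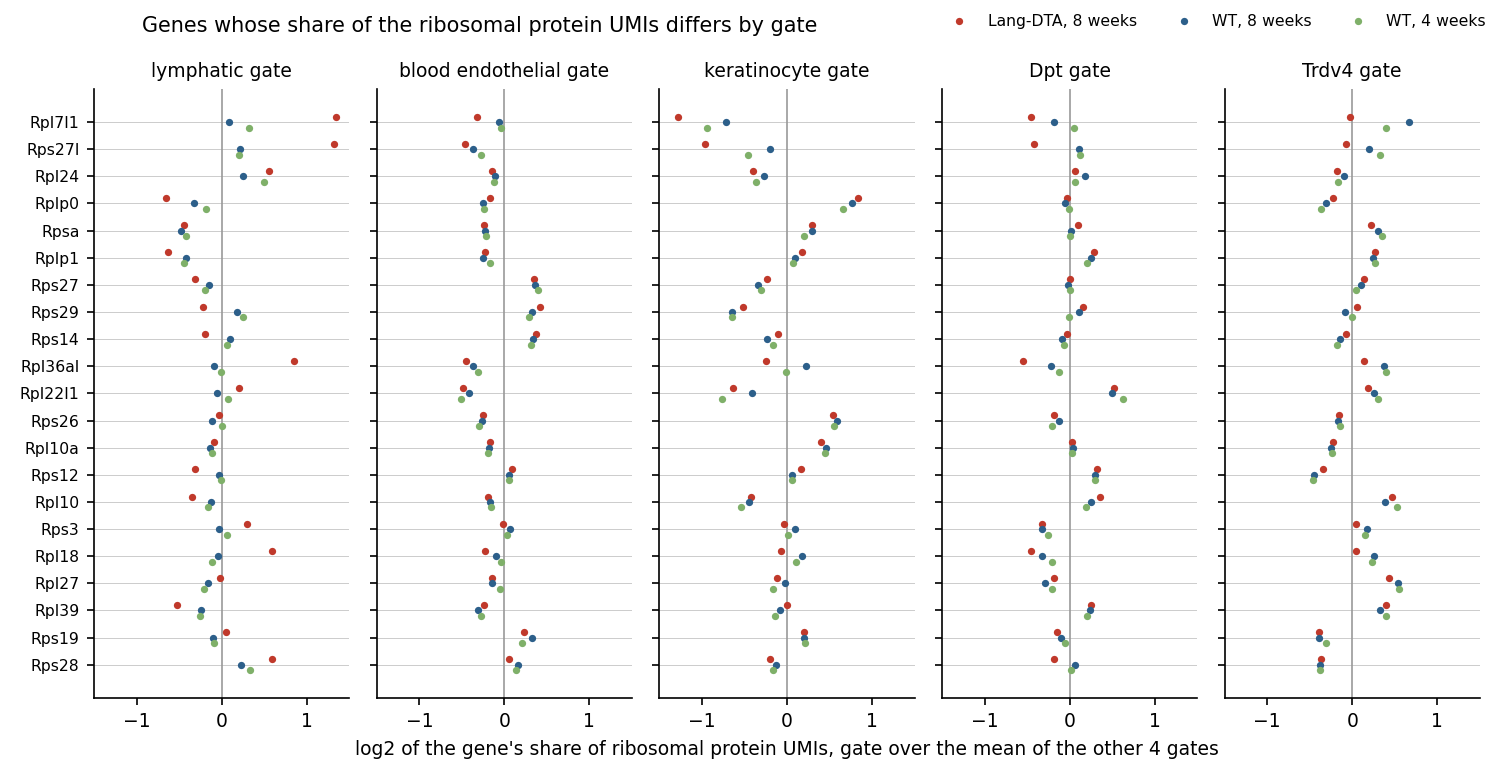
Log2 of each gene's share of ribosomal protein UMIs in a gate over the mean of the other 4 gates (horizontal axis), 1 panel per gate and 1 row per gene, for Lang-DTA, adult WT and young WT. Rplp0 and Rps26 lie to the right in keratinocytes in all 3 libraries; Rps27l and Rpl7l1 lie far to the right in the lymphatic gate in Lang-DTA alone among the 3 points.

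The comparison of adult with young wild type ears showed a higher family total at 8 weeks in all 5 gates. The log2 ratio of the total, adult WT over young WT, was 0.30 (0.29 to 0.30) in the lymphatic gate, 0.49 in the blood endothelial gate, 0.16 in the keratinocyte gate, 0.23 in the Dpt gate and 0.21 in the Trdv4 gate. The median over all measured genes was -0.093, -0.090, -0.093, -0.11 and -0.071 in these gates, so that relative to it the Dpt total stood at 0.34. The gain was not shared evenly. A gene is called higher here at 25% or more above the other library, and lower at 20% or more below it. Members called higher numbered 21 of 82 in the lymphatic gate (12.6% of all genes were), 39 of 82 in the blood endothelial gate (8.83%), 22 of 82 in the keratinocyte gate (9.31%), 23 of 83 in the Dpt gate (12.5%) and 22 of 82 in the Trdv4 gate (12.6%). Members called lower numbered 2 in the lymphatic gate (19.2% of all genes), 0 in the blood endothelial gate (15.5%), 6 in the keratinocyte gate (14.8%), 6 in the Dpt gate (24.3%) and 4 in the Trdv4 gate (17%). The member medians were 0.12, 0.31, 0.025, 0.074 and 0.0049.

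The same 20 members were called higher in all 5 gates, where 4.13% of the genes measured in all 5 gates were, and 46 members were higher in none. Rps29, a small zinc-binding protein of the small subunit, had the widest difference. Its level in the lymphatic gate was 1667 CPM in adult WT and 378 CPM in young WT, and in keratinocytes 2244 and 537 CPM. Its log2 ratio ran from 2.06 to 2.42 over the 5 gates. The adult Lang-DTA library, not part of this comparison, had 1206 CPM in the lymphatic gate and 2235 CPM in keratinocytes, so both 8-week libraries lay above the 4-week one.

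Rps28, another protein of the small subunit, was at 1649 CPM in adult WT and 478 CPM in young WT lymphatic cells, and its log2 ratio ran from 1.74 to 2.07 over the gates. Rpl38, a large-subunit protein known for its part in the translation of Hox messages in the mouse embryo, was at 1188 and 320.3 CPM, with ratios of 1.70 to 1.98. Rpl35, by the exit of the peptide tunnel, was at 803 and 317 CPM, with ratios of 1.30 to 1.71. In all 3 genes, which are named for their high ratios, the Lang-DTA level also lay above the young WT level of the same gate. How many of all genes do so, here or as for Rps29, is not given. Rps27, Rpl39, Rpl24, Rpl37 and Rps21 followed, with lowest ratios over the gates between 0.91 and 1.201. The remaining members higher in all 5 gates were Rpl6, Rpl41, Rpl37a, Rpl36, Rpl22, Rpl35a, Rps24, Rpl36a, Rpl21, Rplp2 and Rpl23.

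The members on the other side were few. Rps9 and Rpl15 were called lower in 4 gates and Rps6, the subunit protein phosphorylated by S6 kinase, in 3. Rpl15 was at 623 CPM in adult WT and 838 CPM in young WT lymphatic cells, and at 698 and 776 CPM in the blood endothelial gate, where its ratio of -0.15 was not called. Rplp0 was at 945 and 1173 CPM in the lymphatic gate, a ratio of -0.31 that was not called either.

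The age ratio ran with the length of the coding sequence. Across the 82 or 83 measured members, Spearman's correlation between age ratio and coding length was -0.66 in the lymphatic, -0.66 in the blood endothelial, -0.65 in the keratinocyte, -0.68 in the Dpt and -0.61 in the Trdv4 gate. With the median length of each gene's annotated transcripts the correlation was weaker, at -0.39, -0.40, -0.37, -0.39 and -0.32 in that order. These points share 1 pair of libraries and are not independent. All 9 members with under 300 coding bases and a mean of at least 50 CPM were called higher in every gate, with medians of 1.31, 1.46, 1.1995, 1.26 and 1.16 in the order of gates above. The 81 to 95 other genes of that length and minimum level had medians of 0.065, 0.16, 0.13, 0.034 and 0.20. Of these other genes, 27.5%, 32.1%, 36.8%, 33.7% and 32.95% were called higher, and 7, 8, 4, 7 and 5 genes lower. Among other genes of at least 2000 coding bases at that level, 4.61% to 10.06% were called higher, with more called lower in every gate. Short genes outside the family were therefore also called higher more often than long ones, though less often than the short members. A further short member, Rpl39l, passed the minimum of 10 CPM in the Dpt gate alone, where its ratio was 0.72. The 28 members under 400 bases summed to log2 ratios of 0.80, 0.98, 0.63, 0.74 and 0.69. The other 58 members summed to 0.095, 0.28, -0.010, 0.018 and 0.019, so outside the blood endothelial gate the longer members' total hardly differed between the libraries. Length was not the whole pattern, since Rpl24 (474 coding bases) and Rpl6 (891) were among the 20. Rpl6 was at 1568 CPM in adult WT and 845 CPM in young WT lymphatic cells.

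**Figure D3:**
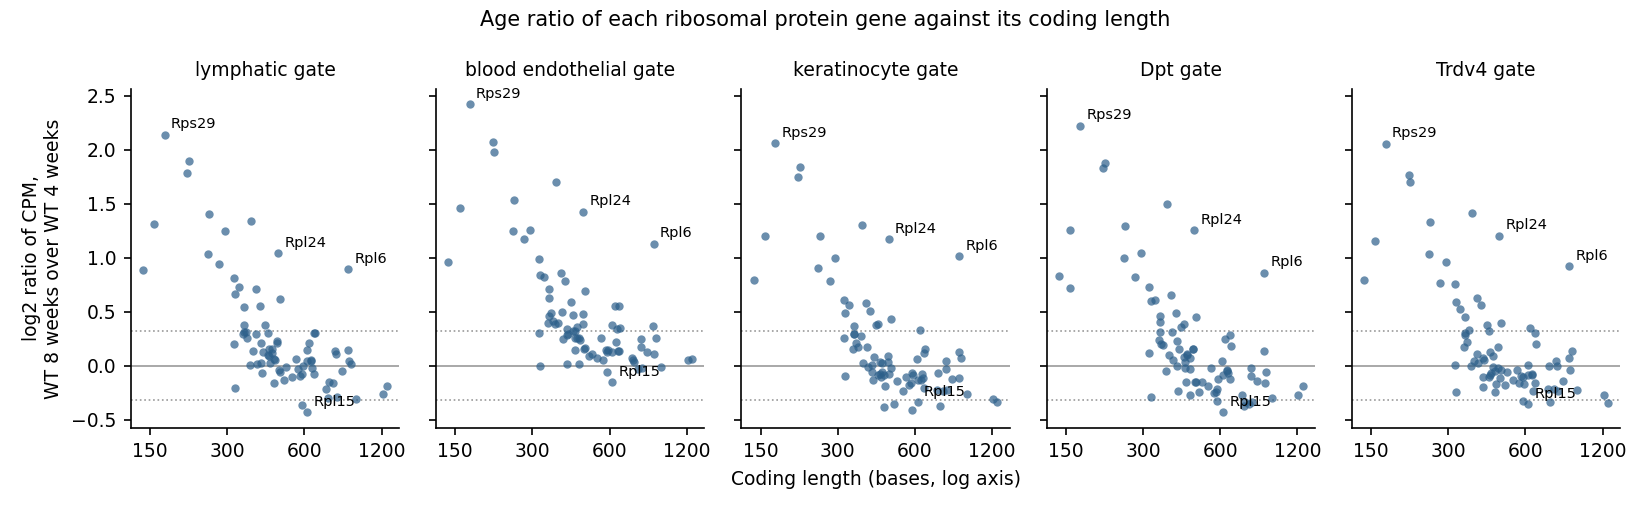
Log2 ratio of CPM, adult WT over young WT (vertical axis), against coding length in bases (horizontal log axis) for each measured member, 1 panel per gate. Dotted lines mark the thresholds for calling a gene higher or lower; the short genes at the left lie highest in every panel, with Rps29 at 2.06 to 2.42, while Rpl24 and Rpl6 lie above others of their length.

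Other measures also differed between these libraries. Markers of keratinocytes, the cells with the highest ribosomal protein share, summed to 1433 CPM in adult WT and 612 CPM in young WT in the lymphatic gate, with 9 of 9 measured markers called higher. They summed to 817 and 540.1 CPM in the blood endothelial gate (8 of 10 called higher), 595 and 318 CPM in the Dpt gate (9 of 9) and 1361 and 913 CPM in the Trdv4 gate (7 of 10, with 1 lower). Malat1, a nuclear RNA, was at 25196 CPM in adult WT and 15413 CPM in young WT lymphatic cells, at 17947 and 10357 CPM in the blood endothelial gate and at 15306 and 9585 CPM in keratinocytes. Mitochondrial UMIs were 1.98% and 1.34% in the lymphatic gate, and 2.15% and 1.31% in the blood endothelial gate. Median depth in the lymphatic gate was 5171 UMIs in adult WT and 7992 UMIs in young WT, and adult WT was also the shallower library in the other 4 gates. Their part in the result was not tested, and age and library preparation cannot be told apart with 1 library each. In the Trdv4 gate the cell make-up also differed. Cells without a Cd3e UMI, whose ribosomal protein share was 10.2% in adult WT and 7.92% in young WT, were 13.6% of the gate in adult WT and 5.404% in young WT. With a Cd3e UMI required, a choice made after seeing the data, the Trdv4 total ratio was 0.067, with 18 members called higher and 13 lower.

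The start of each gene was also read for a TOP-like run, and 4 starts are shown to set members higher at 8 weeks beside members that were not. The search took the gene's own strand from 20 bases before to 10 bases after the RefSeq start (GRCm38.p6) and asked for an unbroken run of C and T letters, at least 5 long, that begins with C between positions -2 and 3 around the start. Of the 66 members with a window, 22 (33.3%) had such a run, against 2863 of 27025 genes (10.6%). Among the 17 members with a window that were higher in all 5 gates 7 had one, and among the other 49 members 15 did. A window without a run says only that no run of this form begins at those positions. The Rps9 window below holds an unbroken stretch of C and T across the start, but it begins before position -2. The 4 windows shown were picked and do not stand for these counts, in which runs also occur among the other members. The windows below belong to Rpl38 and Rps27, higher at 8 weeks in all gates, and to Rps9, called lower in 4 gates, and Rplp0, called in none, with the run in capitals. They lie at chr11:114668560-114668589 (plus), chr3:90213639-90213668 (minus), chr7:3704021-3704050 (plus) and chr5:115559447-115559476 (plus).
Rpl38 start: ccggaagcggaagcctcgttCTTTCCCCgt
Rps27 start: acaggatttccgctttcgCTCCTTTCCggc
Rps9 start: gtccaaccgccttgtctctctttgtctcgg
Rplp0 start: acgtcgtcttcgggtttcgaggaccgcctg

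Partners of the ribosome were read in the same lymphatic cells. In this gate 12.6% of all genes were called higher and 19.2% lower. Of 19 other translation genes of TOP type, 3 were called higher and 4 lower in adult WT than in young WT lymphatic cells, with a median of -0.11, so both counts were near the shares of all genes. Fau, which encodes a small-subunit protein fused to a ubiquitin-like one, was at 1376 CPM in adult WT and 958 CPM in young WT, and Eef2, the translocase of elongation, at 360.3 and 486 CPM. Of 35 measured ribosome biogenesis genes, 8 were higher and 3 lower. Nsa2, needed to mature the large subunit, was at 360.4 CPM in adult WT and 178 CPM in young WT.

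Between Lang-DTA and adult WT, which serves as control here and as the older group above, the family total moved little. The log2 ratio of the total, Lang-DTA over adult WT, was 0.017 (0.013 to 0.021) in the lymphatic gate, -0.11 in the blood endothelial gate, 0.054 in the keratinocyte gate, -0.023 in the Dpt gate and -0.033 in the Trdv4 gate. The medians over all genes were 0.079, 0.062, -0.0091, 0.061 and 0.027. In the lymphatic gate 17 of 82 members were called higher and 9 lower. That is 20.7% and 10.98% of the members, beside 34.7% of all genes called higher and 27.3% lower. Among other genes at a mean of at least 50 CPM, 57.6% of those under 300 coding bases were called higher. From 700 to under 1000 bases 47.7% were, and at 2000 or more 19.6%. Of members at that level, 1 of 9 was higher under 300 bases (3 lower) and 5 of 13 from 700 to under 1000 (1 lower). In the blood endothelial gate 3 members were higher (8.64% of all genes) and 2 lower (2.61%). In the keratinocyte gate 1 was higher (1.97%) and 1 lower (1.5%). In the Dpt gate 2 were higher (14.4%) and 2 lower (7.72%), and in the Trdv4 gate 3 were higher (10.2%) and 1 lower (3.53%).

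The paralog-type genes Rps27l, Rpl36al and Rpl7l1 stood at the upper end in the lymphatic gate. Rps27l, at chr9:66946086-66949516 (plus strand), was at 453 CPM in Lang-DTA and 169 CPM in adult WT, a log2 ratio of 1.43 (1.35 to 1.502). Young WT had 147 CPM, so Lang-DTA alone was high. Its parent Rps27 was at 1006 CPM in Lang-DTA and 1087 CPM in adult WT. Rps27l therefore made up 31.04% of the pair's UMIs in Lang-DTA and 13.4% in adult WT. In young WT it made up 26.4%, at a level near that of adult WT, because Rps27 was at 410.1 CPM there. Outside the lymphatic gate Rps27l was at 192 CPM in Lang-DTA and 141 CPM in adult WT in the blood endothelial gate (0.44), and at 178 and 136 CPM in the Trdv4 gate (0.39). In keratinocytes, at 295 and 288 CPM, and in the Dpt gate, at 164 and 144 CPM, it was not called. The Trdv4 ratio ran from 0.16 to 0.73 over the processing choices tried, so it was under the limit for a call in some. Lymphatic markers also summed higher in the Trdv4 gate, at 347 CPM in Lang-DTA and 196 CPM in adult WT, with 6 of 7 measured called higher. So did markers of other cell types. Fibroblast markers there summed to 1032 and 436 CPM (6 of 6 called higher), and macrophage markers to 269 and 111 CPM (3 of 4). The part of any of these markers in the ratio was not tested.

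The coding sequences of this pair are set side by side to show how far they differ. UMIs of these genes are told apart by differences in transcript sequence, which with a 3′ kit need not lie in the coding part. Where the reads fell was not examined. Both are 255 bases long and capitals mark the 61 bases that differ (76.1% identity). The 84-residue proteins differ at 3 positions. Rps27 lies at chr3:90212725-90213615 (minus) and Rps27l at chr9:66946175-66949357 (plus), and each gene has 4 exons.
Rps27 coding sequence: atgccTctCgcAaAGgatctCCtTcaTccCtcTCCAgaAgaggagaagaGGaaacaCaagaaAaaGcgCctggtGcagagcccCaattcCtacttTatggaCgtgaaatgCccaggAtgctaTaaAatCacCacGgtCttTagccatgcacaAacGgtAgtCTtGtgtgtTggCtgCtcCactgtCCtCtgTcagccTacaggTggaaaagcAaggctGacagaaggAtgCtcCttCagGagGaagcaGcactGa
Rps27l coding sequence: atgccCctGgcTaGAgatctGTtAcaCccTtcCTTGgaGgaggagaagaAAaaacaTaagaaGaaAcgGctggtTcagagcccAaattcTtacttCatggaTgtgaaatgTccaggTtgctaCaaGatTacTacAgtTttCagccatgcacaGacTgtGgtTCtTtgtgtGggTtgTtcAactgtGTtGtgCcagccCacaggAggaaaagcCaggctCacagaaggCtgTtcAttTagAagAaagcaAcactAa

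Rpl36al, the paralog of the large-subunit gene Rpl36a, was the one member called higher in Lang-DTA in all 5 gates, where 0.19% of the genes measured in all 5 gates were. In the lymphatic gate it was at 116 CPM in Lang-DTA and 41.6 CPM in adult WT (1.47, 1.32 to 1.63), with young WT at 48.2 CPM. In the blood endothelial gate it was at 61.3 and 41.0 CPM (0.58), in keratinocytes at 143 and 107 CPM (0.42), in the Dpt gate at 47.7 and 35.1 CPM (0.44) and in the Trdv4 gate at 63.3 and 43.8 CPM (0.53). Lang-DTA was the highest of the 3 libraries in each gate. The parent Rpl36a was at 465 CPM in Lang-DTA and 542 CPM in adult WT lymphatic cells. Rpl36al made up 19.9% of the pair in Lang-DTA, against 7.14% in adult WT and 12.4% in young WT. The products of this pair are identical in all 106 residues, while 39 of 321 coding bases differ (87.9% identity).

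Rpl7l1, a paralog of Rpl7 that takes part in large-subunit assembly, was at 128 CPM in Lang-DTA and 48.0 CPM in adult WT lymphatic cells (1.42, 1.28 to 1.56), with young WT at 58.9 CPM. It made up 13.5% of the Rpl7 pair in Lang-DTA, against 5.33% in adult WT and 6.27% in young WT. In the blood endothelial gate it was at 58.1 and 50.9 CPM in Lang-DTA and adult WT, and in keratinocytes at 67.7 and 64.7 CPM, neither of them called. Rps19bp1 was at 45.7 CPM in Lang-DTA and 15.8 CPM in adult WT lymphatic cells (1.53). The fourth paralog, Rpl22l1, made up 21.3% of the Rpl22 pair in Lang-DTA, 16.9% in adult WT and 24.9% in young WT. The starts of Rps27l, at chr9:66946066-66946095 (plus), and Rpl36al, at chr12:69184058-69184087 (minus), are shown for comparison with those above. The first of the RefSeq starts of Rps27l holds a 5-letter run and that of Rpl36al none.
Rps27l start: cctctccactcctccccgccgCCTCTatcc
Rpl36al start: gttcgcattcccgtcgctcaggttcagttc

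Core subunit genes moved by less, and in both directions. Rpl18 was at 1210 CPM in Lang-DTA and 744 CPM in adult WT lymphatic cells (0.70), Rpl7a at 641 and 430 CPM (0.58) and Rpl15 at 915 and 623 CPM (0.56). On the lower side, Rps4x, the X-linked form of a small-subunit protein, was at 979 CPM in Lang-DTA and 1383 CPM in adult WT (-0.50, -0.53 to -0.47). Rps24 was at 1413 and 1983 CPM (-0.49), Rps29 at 1206 and 1667 CPM (-0.47) and Rpl41 at 845 and 1116 CPM (-0.40). The pools differ in sex ratio, and the Rps4x ratio was -0.54 among cells called male and -0.48 among cells called female. Of the members lower in Lang-DTA, Rps2, a small-subunit protein at the messenger RNA entry, recurred most often. It was at 501 CPM in Lang-DTA and 671 CPM in adult WT in the blood endothelial gate (-0.42), 1300.2 and 1683 CPM in keratinocytes (-0.37), 449.7 and 562 CPM in the Dpt gate (-0.32) and 418 and 555 CPM in the Trdv4 gate (-0.41). In the lymphatic gate, at 611 and 637 CPM, it was not called. Several members, Rps2 among them, have near-identical processed copies in the genome to which reads can also be assigned, so their counts are less certain.

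**Figure D4:**
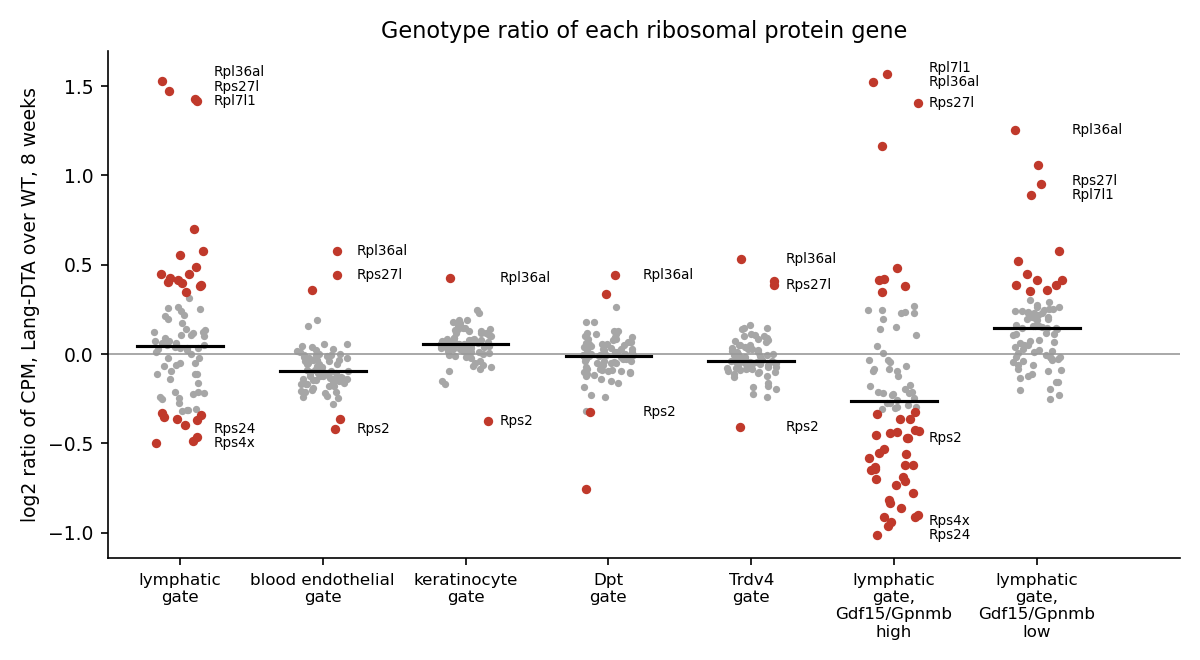
Log2 ratio of CPM, Lang-DTA over adult WT (vertical axis), for each measured member in the 5 gates and in the Gdf15/Gpnmb high and low parts of the lymphatic gate. Red points are genes called higher or lower, black lines are member medians and horizontal scatter has no meaning; Rps27l, Rpl36al and Rpl7l1 lie near 1.4 in the lymphatic gate, and the median is lowest, at -0.26, in the Gdf15/Gpnmb high part.

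Genes that build and load ribosomes were examined beside the ribosomal proteins in lymphatic cells. Of all genes measured there, 34.7% were called higher in Lang-DTA than in adult WT and 27.3% lower. Of 38 measured ribosome biogenesis genes, 35 were called higher in Lang-DTA and 0 lower, with a median of 0.82. Gnl3, the GTPase nucleostemin, was at 370 CPM in Lang-DTA and 111 CPM in adult WT, Utp14a at 146 and 44.3 CPM and Nop16 at 85.9 and 23.99 CPM. Of 25 initiation factors, 21 were higher and 0 lower, with a median of 0.66, and Eif3c was at 605 and 221 CPM. Of 19 TOP-type partners, 8 were higher and 2 lower, with a median of 0.25, and Npm1, a nucleolar chaperone, was at 792 and 327 CPM. Of 13 p53 targets, 11 were higher and 1 lower, with a median of 1.26, and Bax, which promotes cell death, was at 432 and 80.2 CPM. Of 16 mTOR pathway genes, 5 were higher and 6 lower, with a median of 0.093, near that of all genes. Of 13 measured genes of translational control and amino acid stress, 6 were higher and 4 lower, with a median of 0.21.

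In the other gates the share of all genes called was smaller too. In Lang-DTA over adult WT, 7 of 36 biogenesis genes were higher in the blood endothelial gate (8.64% of all genes), 0 of 38 in keratinocytes (1.97%), 3 of 35 in the Dpt gate (14.4%), with 2 lower (7.72%), and 6 of 36 in the Trdv4 gate (10.2%). The lymphatic cells differed in state as well. Immediate early and heat shock genes, known to respond to tissue dissociation, summed to 12660 CPM in Lang-DTA and 25297 CPM in adult WT, with 16 of 17 lower. Lymphatic markers summed to 7483 and 15514 CPM, and keratinocyte markers, carried by cells with the highest ribosomal protein share, to 862 and 1433 CPM. Median depth was 9496 UMIs in Lang-DTA and 5171 UMIs in adult WT. Within the lymphatic gate the family's share was higher in deeper cells, at 3.31% of UMIs in Lang-DTA cells of 1000 to 2000 UMIs and 8.12% in those of at least 16000 UMIs. The part of these measures in the results was not tested.

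The lymphatic gate was then split by Gdf15, a stress-induced secreted factor, and Gpnmb, a lysosomal glycoprotein, into cells with at least 4 UMIs of both together (high) and cells with at most 1 (low). In Lang-DTA 1083 cells were high and 1047 low, in adult WT 133 and 1329, and in young WT 525 and 3252. The family total, high over low, had a log2 ratio of -0.065 (-0.070 to -0.061) in Lang-DTA, 0.33 in adult WT and 0.27 in young WT, beside all-gene medians of -0.076, -0.062 and -0.069. In Lang-DTA 8 of 82 members were called higher (26.3% of all genes) and 15 lower (33.8%). In adult WT 42 were higher (14%) and 0 lower (25.1%), and in young WT 9 were higher (6.22%) and 0 lower (21.4%). High cells were deeper than low cells, with medians of 11761 and 7049 UMIs in Lang-DTA, 6927 and 4944 UMIs in adult WT and 10059 and 7528 UMIs in young WT.

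Inside Lang-DTA members differed between high and low cells in both directions. Rpl7l1 was at 159 CPM in high and 86.2 CPM in low cells (0.88, 0.76 to 1.001), Rps27l at 553 and 318 CPM (0.80, 0.74 to 0.86) and Rps19bp1 at 55.0 and 31.7 CPM (0.79). Rpl18 was at 1390.3 and 946 CPM (0.55), and Rps28 at 2533 and 1870.0 CPM (0.44). On the lower side were Rpl36a at 372 CPM in high and 584 CPM in low cells (-0.65), Rplp0 at 634 and 989 CPM (-0.64), Rps20 at 781 and 1148 CPM (-0.56) and Rps21 at 1175 and 1713 CPM (-0.54). In adult WT the ratios of all 82 measured members, these 4 genes among them, were above 0, against 34 of 82 in Lang-DTA. Rplp0 was at 1154 CPM in high and 898 CPM in low cells of adult WT. The direction of Rplp0, like that of other members, differed between the libraries, and this difference was not tested.

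**Figure D5:**
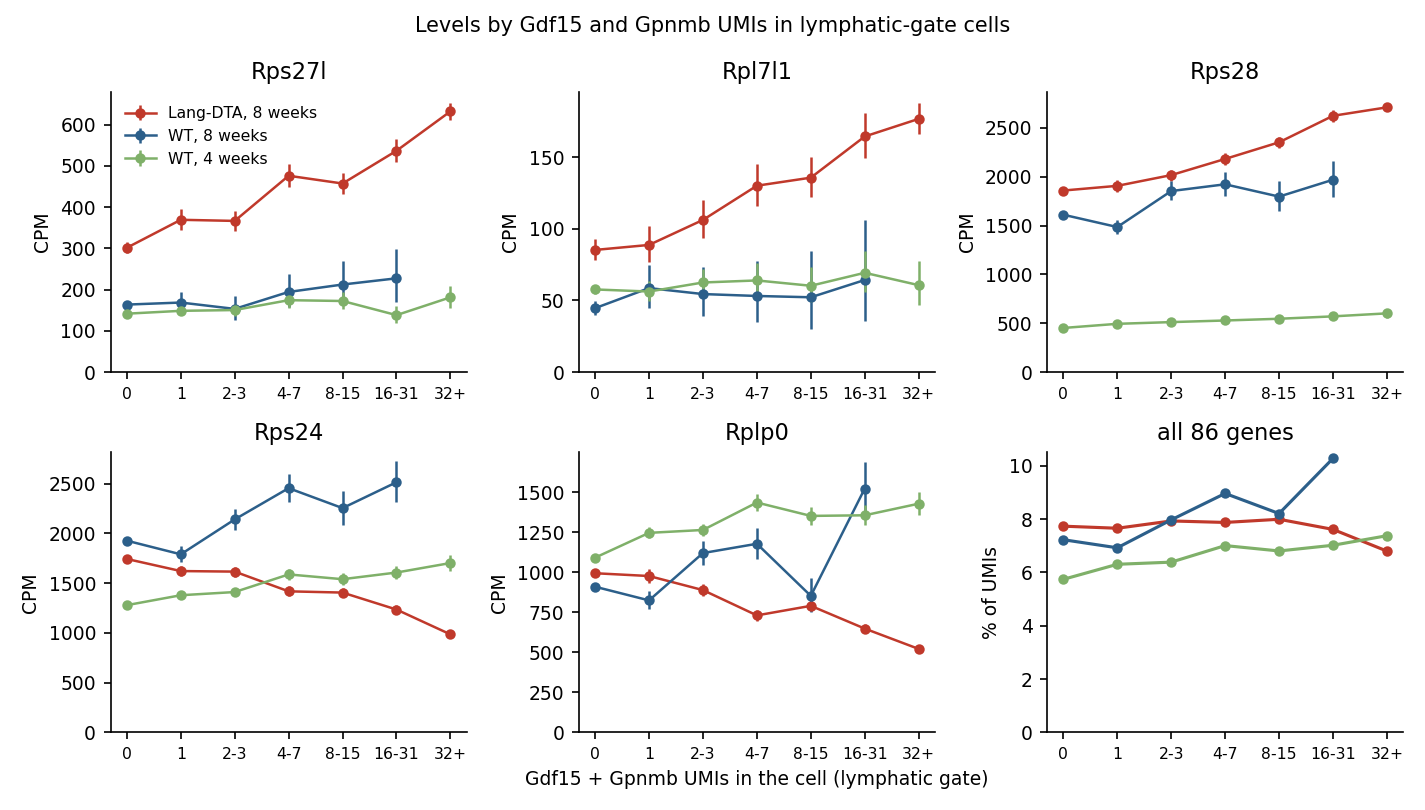
Level in CPM of 5 members, and the family's percent of UMIs, in lymphatic-gate cells binned by their summed Gdf15 and Gpnmb UMIs (horizontal axis), for Lang-DTA, adult WT and young WT; bars are 95% counting intervals and bins under 20 cells are not drawn. In Lang-DTA, Rps27l runs from 301 CPM at 0 UMIs to 632 CPM at 32 or more, while Rps24 runs from 1742 to 984 CPM.

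Over the bins of Gdf15 and Gpnmb UMIs the Lang-DTA levels changed by degrees. Rps27l was at 301 CPM in cells with neither, 476 CPM at 4 to 7 UMIs and 632 CPM at 32 or more. Rpl7l1 was at 85.4, 130 and 177 CPM in these bins, and Rps24 at 1742, 1417 and 984 CPM. The total was 7.73%, 7.87% and 6.80% of UMIs. In adult WT Rps27l stayed between 153 and 227 CPM over the bins drawn, and the total was 7.22% of UMIs in cells with neither and 10.3% at 16 to 31 UMIs. Lang-DTA cells with neither UMI still had more Rps27l than adult WT cells of any bin drawn, which end at 31 UMIs in adult WT.

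Compared between genotypes within the split, the high cells of Lang-DTA had a family total below that of adult WT high cells (-0.29), while in low cells the ratio was 0.10. The high parts are unlike in their Gdf15 and Gpnmb UMIs. In Lang-DTA 434 of 1083 high cells had 32 or more, where the family's share was 6.80%. In adult WT that bin held under 20 cells. The part of this in the ratios was not tested. In high cells 9 members were called higher (39.6% of all genes) and 34 lower (29.6%). In low cells 13 were higher (28.4%) and 0 lower (18.9%). Rps24 was at 1188 CPM in Lang-DTA and 2399 CPM in adult WT high cells (-1.01). The median was -0.22 for large-subunit and -0.45 for small-subunit members in high cells. The paralogs Rps27l, Rpl36al and Rpl7l1 were higher in both parts. Rps27l had ratios of 1.41 in high and 0.95 in low cells, Rpl36al 1.52 and 1.26, and Rpl7l1 1.57 and 0.89. Among low cells Rps27l was at 318 CPM in Lang-DTA and 164 CPM in adult WT.

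Of the other translation genes, biogenesis genes and initiation factors were mostly higher in the high cells of Lang-DTA, where 26.3% of all genes were called higher and 33.8% lower. Of 38 biogenesis genes 29 were called higher in high cells and 0 lower, with a median of 0.69, and Gnl3 was at 546 CPM in high and 141 CPM in low cells. Of 25 initiation factors 16 were higher and 0 lower, with a median of 0.39, and Eif5 was at 1042 and 353 CPM. Of 13 p53 targets 12 were higher and 1 lower, with a median of 1.27, and Cdkn1a, the cell cycle inhibitor p21, was at 1253 and 253 CPM. Of 19 TOP-type partners 5 were higher, a share near that of all genes, and 3 lower, with a median of 0.19. Of 16 mTOR pathway genes 5 were higher and 4 lower, with a median of -0.11.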

How the data were processed

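The deposited files hold, per library, raw UMI counts per gene and cell barcode. The authors made them with Cell Ranger (8.01 per the submitters' processing notes, 8.0.1 per the file headers) from a 10x 3′ v4 library against GRCm38. Here, barcodes with at least 500 genes, 1000 UMIs and at most 10% mitochondrial UMIs were kept. Counts were summed over the cells of a gate in a library and divided by all UMIs of those cells (CPM). Doublets were not removed in the main analysis. A caller built on simulated doublets marked 701, 687 and 638 cells in Lang-DTA, adult WT and young WT, and 266, 240 and 212 cells passed more than 1 gate; leaving either set out was an alternative. With 1 library per condition no test was run. A ratio is described by its exact conditional 95% interval, which covers counting error only, and a gene is called higher at 25% or more above, or lower at 20% or more below, among genes at a mean of at least 10 CPM. The script for ratios and intervals was tested on simulated data.

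Genes were named by a rule: the 5 most abundant members, Rpsa and the stalk proteins, paralog pairs, the 4 highest and the 4 lowest ratios at a mean of at least 50 CPM in each comparison, the 3 highest shares per gate, and 3 genes per further list. The shares per gate were picked among members with the same direction in all 3 libraries. Lower shares per gate, members called in several gates and Rps19bp1 were named after their values were seen. Some items that the rule names are not reported here. The members and gene lists were chosen with earlier results of these data known. Coding lengths and coding sequences came from GENCODE M21, as the longest annotated coding sequence for the length. Starts came from RefSeq (GRCm38.p6), where 66 of the 86 members had one. Python 3.11.15, numpy 2.4.6, scipy 1.17.1 and scikit-learn 1.9.0 were used. In total 14 alternatives were computed. Mice treated with imiquimod, which the protocol mentions, were not analysed here.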

Additional observations from a re-analysis of the deposited data

Results flagged for a closer look

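The family total had ratios of opposite sign between libraries when lymphatic-gate cells were split by Gdf15 and Gpnmb. The log2 ratio of high over low cells was -0.065 in Lang-DTA, against 0.33 in adult WT and 0.27 in young WT. The Lang-DTA value lay near the median of all genes, -0.076, and ran from -0.16 to 0.021 over the alternatives, so its sign depends on the processing. Seen across genotypes, the ratio of Lang-DTA over adult WT was -0.29 in high cells and 0.10 in low cells. Each side is 1 library and the difference was not tested. The adult WT high cells number 133, and their keratinocyte markers summed to 2016 CPM, against 1180.4 CPM in adult WT low cells; in Lang-DTA the sums were 669 CPM in high and 958 CPM in low cells. The high cells of the 2 libraries also differed in their Gdf15 and Gpnmb UMIs, as given above. The part of these measures in the difference was not tested.

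Pseudogene symbols outside the rule also carried UMIs. Over the 3 libraries Rpl27-ps3 had 5399 UMIs (1866 in Lang-DTA, 1889 in adult WT and 1644 in young WT), Rpl10-ps3 had 3732, Rps12-ps3 had 2566 and Rpl9-ps6 had 1569, all above the limit of 3 counts. Rps12-ps3 had 908 UMIs in Lang-DTA, 1044 in adult WT and 614 in young WT. How reads were shared between these copies and the parent genes was not tested.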

How the results depend on the processing

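No paired analysis was possible because each condition has 1 library. Over the 14 alternatives and the Cd3e setting added after seeing the data, called values kept their sign in 879 of 879 recomputations. Smaller ones did in 508 of 525. Most of these values are members picked for the highest or lowest ratios. Changes of the fold or of the CPM minimum leave every ratio as it is. Kept signs were therefore largely fixed in advance. Of 1404 recomputed values, 459 left the counting interval of the main value. The counts of members called moved by more than 1.5 times in few cases. At a fold of 1.5 the genotype counts were 5 in the lymphatic (26 in the report), 0 in the blood endothelial (5), 0 in the keratinocyte (2), 1 in the Dpt (4) and 0 in the Trdv4 gate (4). The age counts at that fold were 21 in the blood endothelial (39), 13 in the keratinocyte (28), 17 in the Dpt (29) and 15 in the Trdv4 gate (26), and the count between high and low cells of Lang-DTA was 5 (23). Thinning cells to 2000 UMIs gave a genotype count of 3 in the blood endothelial gate, cells called male 1 in the keratinocyte gate, cells called female 2 in the Trdv4 gate and a minimum of 50 CPM 2 in the Dpt gate.

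The family total between genotypes ran over the alternatives from -0.062 to 0.081 in the lymphatic, -0.085 to 0.047 in the Dpt and -0.092 to 0.0090 in the Trdv4 gate, so its direction in these gates rests on the scaling or the cells chosen. With a Cd3e UMI required, an alternative added after seeing the data, it was 0.053 in the Trdv4 gate. The total between high and low cells of Lang-DTA ran from -0.16 to 0.021. The age totals kept their sign and ran from 0.22 to 0.39 in the lymphatic, 0.44 to 0.58 in the blood endothelial, 0.12 to 0.31 in the keratinocyte, 0.15 to 0.34 in the Dpt and 0.13 to 0.28 in the Trdv4 gate over the other settings, while a required Cd3e UMI gave 0.067 in the Trdv4 gate. The lymphatic genotype ratio of Rps27l ran from 1.30 to 1.47, and its Trdv4 ratio from 0.16 to 0.73. Replicate spread is unknown throughout, since cells of 1 library are not replicates.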
